A study of Mus musculus with 2 samples.

Results

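KLF4 peaks within 1 kb of the transcription start site (TSS) of a protein-coding gene numbered 283, of 4216 peaks in the deposited list (6.71%, 95% exact binomial interval 5.98 to 7.51). They were taken by their annotation alone, a promoter at a distance of at most 1 kb from the nearest transcript start together with a protein-coding gene type, and they named 275 genes. The cells were primary portal fibroblasts of the mouse liver, sorted as tdT+ cells from Clec3bCreERT2;R26tdT animals, in which an inducible Cre under the Clec3b gene switches on the red reporter, and they overexpressed Klf4 from a lentivirus. The list compared 1 anti-KLF4 chromatin immunoprecipitation (ChIP) library with 1 input library, both made from such overexpressing cells. There was no replicate and no library from cells without the virus, so every value below describes 1 pair of libraries, intervals cover counting error only, and no test was made. The sources used here do not give the dose of the inducing drug, the age of the animals or how many were pooled. The list holds no expression values, so the cell type was taken from the labels and not checked against its markers. Coordinates of peaks are on GRCm39, as the files give them.

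KLF4 is a zinc finger transcription factor of the Krüppel-like family that binds GC-rich and CACC-containing DNA and can activate or repress its targets. Portal fibroblasts surround the bile ducts and portal veins and can turn into contractile, matrix-producing myofibroblasts in biliary fibrosis, and the study asked how KLF4 bears on that transition. A promoter is the stretch around the TSS where the transcription machinery assembles, and neighbouring genes that point away from each other can share a single promoter.

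The promoters below belong to genes whose peak reached or came within 10 bp of the start of a full-length transcript, whose span is within 200 bp of the gene's. They were printed to show the range seen: the peak with the highest fold (Hdgfl2), a histone promoter (H2ac13), a ribosomal protein promoter (Rpl41), a promoter shared with a divergent gene (Ogfod1), a promoter with a KLF-type box (Grn) and the promoter of a contractile gene (Myh9). Each runs 5′ to 3′ on the gene's strand from 250 bases before to 50 bases after the start, from RefSeq on GRCm38.p6. Capitals mark matches on either strand to GGGNGTGG (a KLF-type box), GGGCGGGG (a GC box) or CACCC (the core of the CACC-type boxes), and overlapping matches run together. The windows are chr17:56079381-56079680 on the plus strand for Hdgfl2, chr13:21716162-21716461 on the plus strand for H2ac13, chr10:128549119-128549418 on the minus strand for Rpl41, chr8:94036948-94037247 on the plus strand for Ogfod1, chr11:102430257-102430556 on the plus strand for Grn and chr15:77842126-77842425 on the minus strand for Myh9.
Hdgfl2: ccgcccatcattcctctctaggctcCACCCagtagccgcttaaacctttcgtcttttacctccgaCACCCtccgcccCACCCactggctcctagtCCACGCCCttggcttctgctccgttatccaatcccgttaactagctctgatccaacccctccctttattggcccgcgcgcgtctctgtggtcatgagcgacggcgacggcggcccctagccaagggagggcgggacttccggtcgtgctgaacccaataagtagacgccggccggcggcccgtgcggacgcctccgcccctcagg
H2ac13: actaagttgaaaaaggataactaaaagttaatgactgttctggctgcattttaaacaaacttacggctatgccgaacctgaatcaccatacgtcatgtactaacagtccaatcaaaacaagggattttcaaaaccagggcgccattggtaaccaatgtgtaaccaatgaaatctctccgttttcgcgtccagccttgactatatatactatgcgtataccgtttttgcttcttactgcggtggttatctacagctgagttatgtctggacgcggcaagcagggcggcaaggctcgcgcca
Rpl41: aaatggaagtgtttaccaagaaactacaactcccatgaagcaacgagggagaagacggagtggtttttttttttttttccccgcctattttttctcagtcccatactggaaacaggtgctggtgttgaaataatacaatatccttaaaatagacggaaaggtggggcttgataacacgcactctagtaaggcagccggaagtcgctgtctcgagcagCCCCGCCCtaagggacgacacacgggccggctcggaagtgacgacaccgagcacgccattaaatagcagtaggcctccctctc
Ogfod1: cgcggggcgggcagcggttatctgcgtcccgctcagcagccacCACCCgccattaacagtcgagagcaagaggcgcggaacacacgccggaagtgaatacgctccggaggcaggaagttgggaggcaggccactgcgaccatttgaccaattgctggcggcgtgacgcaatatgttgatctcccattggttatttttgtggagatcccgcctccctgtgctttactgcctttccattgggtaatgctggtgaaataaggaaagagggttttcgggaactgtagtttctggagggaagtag
Grn: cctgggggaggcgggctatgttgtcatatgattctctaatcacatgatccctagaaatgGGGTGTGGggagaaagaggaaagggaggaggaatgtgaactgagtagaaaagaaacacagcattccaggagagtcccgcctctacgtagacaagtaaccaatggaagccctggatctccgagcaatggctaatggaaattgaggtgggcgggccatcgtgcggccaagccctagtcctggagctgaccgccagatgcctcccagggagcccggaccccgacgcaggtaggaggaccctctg
Myh9: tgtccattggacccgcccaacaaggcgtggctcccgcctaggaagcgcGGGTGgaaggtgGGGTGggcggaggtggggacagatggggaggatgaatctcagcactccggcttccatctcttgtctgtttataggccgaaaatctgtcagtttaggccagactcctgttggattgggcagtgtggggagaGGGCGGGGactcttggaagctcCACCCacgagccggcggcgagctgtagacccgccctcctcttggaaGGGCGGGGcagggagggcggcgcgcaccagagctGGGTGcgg

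The Hdgfl2 window held 1 GGGNGTGG match, 3 CACCC matches and 28 CpG dinucleotides, and the Myh9 window held 2 GGGCGGGG and 4 CACCC matches. Rpl41 had 1 GGGCGGGG match, Ogfod1 had 1 CACCC match, and Grn had 1 of GGGNGTGG and 1 of CACCC. In the H2ac13 window, with 15 CpG dinucleotides, none of the 3 motifs was found.

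Most promoter peaks rested on few fragments. The deposited fold is the ChIP height at the summit plus 1, divided by the local background plus 1, and both terms could be recovered from the deposited fold and p-value of each peak. Of the 283 peaks, 114 had a height of 5 ChIP fragments and 96 a height of 6, together 74.2% (68.7 to 79.2), against 75.3% of all peaks in the list. A height of 7 was found at 38 peaks, 8 or 9 at 20, and 10 or more at 15. The median fold was 4.59, with quartiles of 4.54 and 5.05 and a range of 1.82 to 9.71, and the median of the whole list was also 4.59. With so few whole-number heights many folds were tied, since 81 promoter peaks had 5 fragments over the lowest background used (fold 4.59) and 40 had 6 fragments over 1.76 times that background (fold 4.54). These 121 peaks, 42.8% of the set, had q-values of 0.0475 and 0.0484 and cannot be ordered among themselves. A q-value under 0.01 was reached by 62 promoter peaks (21.9%, 17.2 to 27.2), against 17.4% over all peaks, a value inside the members' interval.

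**Figure D1:**
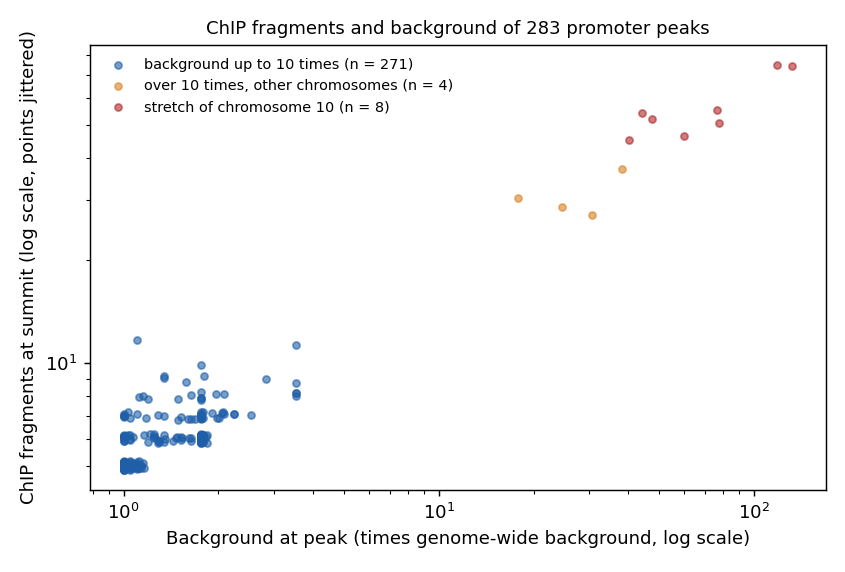
ChIP fragments at the summit (vertical, log scale, points moved slightly up or down so that ties can be seen) against the local background as a multiple of the genome-wide background (horizontal, log scale) for the 283 promoter peaks. In all, 271 peaks had between 5 and 12 fragments at a background of at most 3.53 times, and 12 peaks stood apart with a background over 10 times, 8 of them in a stretch of chromosome 10.

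The 20 highest folds belonged to genes of mixed function, which are given here by what each gene is known to do. Hdgfl2, which encodes a chromatin reader of the HDGF family, had the highest fold, 9.71, with 12 fragments and a q-value of 6.21e-11 in a 645 bp peak at chr17:56386036-56386680 that spanned the TSS. H2ac13, a replication-dependent histone H2A gene, followed with a fold of 7.13 and 10 fragments at chr13:21900336-21900582, ending 10 bp before the start. Histone genes of this cluster are near-identical copies, so fragments there may belong to another copy. Ier2, an immediate early gene whose product acts in the nucleus, had a fold of 6.65 and 8 fragments in a peak spanning its TSS at chr8:85389373-85389669. Men1, which encodes the menin scaffold of histone methyltransferase complexes, had a fold of 6.12 and 7 fragments 26 bp upstream. Spen, a transcriptional corepressor, had a fold of 6.06 at 471 bp upstream, and Tada3, a subunit of histone acetyltransferase complexes, had 5.87 across its TSS.

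Next to Hdgfl2 and H2ac13 in fold came Anxa7, Rnf181, Emp1 and Plaa. Rnf181, a RING-type ubiquitin ligase, had a fold of 7.08 with 9 fragments at chr6:72339415-72339652, the peak touching the TSS with its edge. Anxa7, an annexin that binds membranes in the presence of calcium, had the same fold of 7.08 and the same 9 fragments, but lay 962 bp downstream of the start. Emp1, a tetraspan membrane protein, had a fold of 6.73 with 9 fragments across its start at chr6:135339702-135340157, and its relative Emp3 had a spanning peak with a fold of 5.19. Plaa, a ubiquitin-binding protein, had a fold of 6.70 at 987 bp downstream, and Rnf227, another RING finger gene, had 6.08 at 589 bp downstream. Spag9, a scaffold of the JNK pathway, had a fold of 6.58 in a 605 bp peak 778 bp upstream. Tmx2, a thioredoxin-related membrane protein, had a fold of 6.43 across its TSS.

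Among the others of the 20, Rpl41, a protein of the large ribosomal subunit, had a fold of 6.12 in a 589 bp spanning peak at chr10:128384858-128385446, where processed pseudogene copies elsewhere in the genome leave the origin of fragments uncertain. Atp5mg, a subunit of mitochondrial ATP synthase, had a fold of 5.97 at 358 bp upstream. Mylpf, a myosin light chain of fast skeletal muscle, and Pramel12, of the PRAME-like family, each had a fold of 6.12 in peaks spanning the start. Odad1, a docking factor of ciliary outer dynein arms, had the same fold of 6.12 at 726 bp upstream, and its peak at chr7:45572140-45572770 lay 1182 bp from that of Emp3. Dst, a linker of the cytoskeleton, had a fold of 5.98 at 596 bp upstream, and the olfactory receptor gene Or5al1 had 6.17 across the start. Apart from Hdgfl2 and H2ac13, these 20 peaks had 7 to 9 fragments, so that neighbours in this order differed by few fragments or by their background alone.

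Promoter peaks lay more often upstream than downstream of the start. The peak ended before the TSS in 130 cases (45.9%, 40.0 to 51.9), spanned it in 64 (22.6%, 17.9 to 27.9) and began after it in 89 (31.4%, 26.1 to 37.2). Of the 219 peaks that did not span the TSS, 59.4% (52.5 to 65.9) were upstream. Around the starts of other gene types, where 142 peaks lay within the same 1 kb, this share was 48.0% (38.9 to 57.2), with overlapping intervals. The bin that held most peaks was the 200 bp just before the start, with the midpoints of 68 peaks (24.0%, 19.2 to 29.4), against 18 (6.36%) in the 200 bp just after it. At other gene types the same bins held 13.4% (8.25 to 20.1) and 7.75%, the interval of the first overlapping that of coding genes. At the edge of the rule, the outermost members were Ipo5 at 999 bp, Tmcc1 at 996 bp and Mdn1 at 995 bp downstream. The first coding genes beyond it were A030003K21Rik at 1024 bp and Unkl at 1035 bp downstream and Dusp3 at 1028 bp upstream.

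The starts used by the annotation were often those of short or internal transcripts. Of 272 peaks whose gene had a known span in the RefSeq table, 107 were assigned to a transcript covering less than 50% of the gene, and 78 to a transcript whose span was within 200 bp of the gene's, called full-length here. Peaks at full-length transcripts spanned the TSS in 32 cases (41.0%, 30.0 to 52.7), compared with 30 of the other 194 (15.5%, 10.7 to 21.3). Among those not spanning it, 37 of 46 lay upstream (80.4%, 66.1 to 90.6), compared with 87 of 164 (53.0%, 45.1 to 60.9) at other transcripts. The 200 bp before the start held the midpoint of 39.7% of the former and 18.6% of the latter. The intervals of the 2 classes of transcript did not overlap, for spanning or for the upstream share. Median fold was 4.59 at full-length transcripts, the same as over all promoter peaks.

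**Figure D2:**
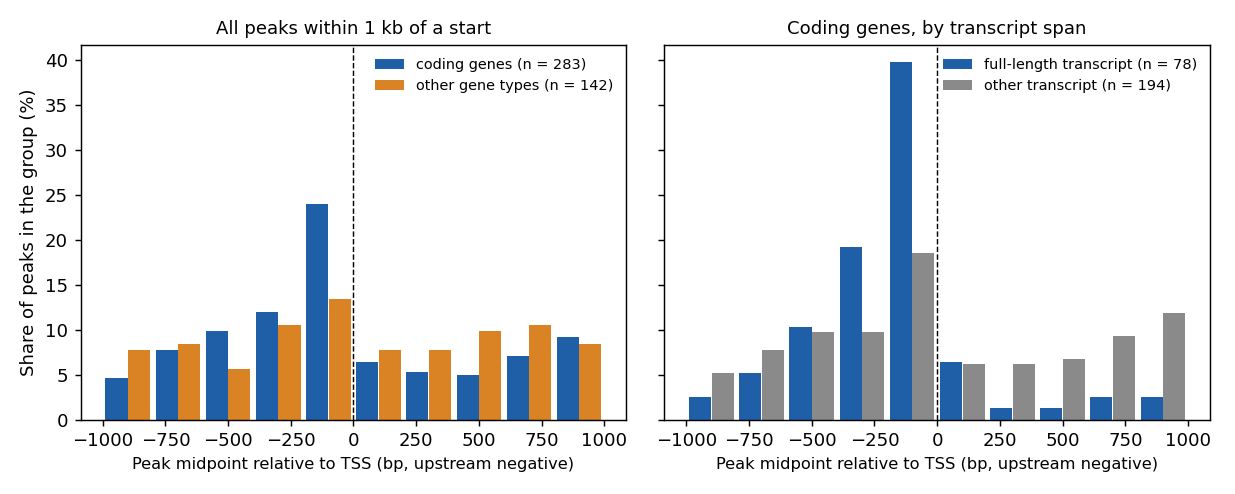
Share of peaks (%) by the position of the peak midpoint relative to the TSS in bins of 200 bp, upstream negative. Left, coding genes (283) against other gene types (142). Right, coding genes by transcript, full-length (78) against other (194). The bin just before the start holds 39.7% of peaks at full-length transcripts and 18.6% at other transcripts, and the midpoints of 25 coding peaks, beyond 1000 bp, are not drawn.

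Peaks over the start were wider. Promoter peaks had a median width of 231 bp (quartiles 167 and 335, range 87 to 875), against 200 bp (142 and 290) for the rest of the list, and 26 (9.19%, 6.09 to 13.2) were wider than 500 bp, against 4.32% (3.71 to 5.01). The median was 312.5 bp for the 64 spanning peaks, 206 bp for those upstream and 208 bp for those downstream. Whether a peak spans the TSS depends on its width by definition. A q-value under 0.01 was held by 20 spanning peaks (31.3%, 20.2 to 44.1), 32 upstream (24.6%) and 10 downstream (11.2%, 5.52 to 19.7). The widest were Mylpf at 875 bp, Pramel12 at 744 bp, Vim at 739 bp, Rangap1 at 647 bp and Hdgfl2 at 645 bp. Rangap1, the activator of the GTPase that drives nuclear transport, had a fold of 5.76 with 11 fragments over a background of 3.53 times the genome-wide one.

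**Figure D3:**
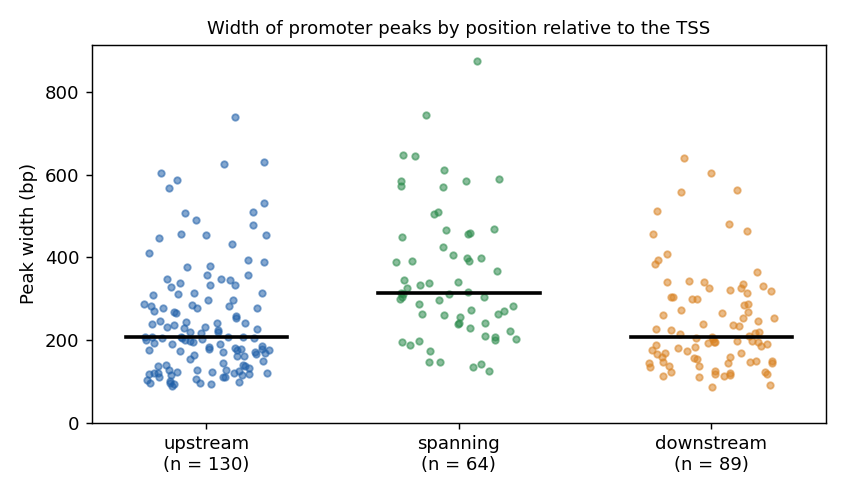
Width (bp) of each of the 283 promoter peaks by its position relative to the TSS, with a line at the group median, 206 bp upstream, 312.5 bp spanning and 208 bp downstream. The widest peak, 875 bp, spans the start of Mylpf.

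Of 16 lists of genes of known function, 7 held at least 1 gene with a promoter peak. In the macrophage, cell cycle and nuclear pore lists the only such gene lay in the high-background stretch of chromosome 10 described at the end. The list counts were not repeated without that stretch. Over all 21900 coding genes of the RefSeq table, 264 were matched to a promoter peak, 1.21%, and the lists are read against that share. The myofibroblast and contractile list had 4 of 20 genes (20.0%, 5.73 to 43.7), Vim, Cald1, Myh9 and Tpm4, and its interval lies above 1.21%. The list was drawn up with earlier results of these data known, so this is no independent count. Myh9, the heavy chain of nonmuscle myosin, had a 425 bp peak across the start of a full-length transcript at chr15:77726239-77726663, with 5 fragments and a fold of 4.59. Vim, the intermediate filament protein of mesenchymal cells, had a fold of 5.04 with 7 fragments at 62 bp upstream of a short transcript, 907 bp of a gene of 8516 bp. Cald1, an actin- and myosin-binding regulator of contraction, had a fold of 4.97 at 215 bp downstream of a transcript of 5735 bp in a gene of 176975 bp. Tpm4, a tropomyosin that stabilises actin filaments, had a fold of 4.32 at 830 bp downstream, with 8 fragments over a background of 3.53 times the genome-wide one.

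Other lists of the fibrosis response had fewer. Of 29 genes of TGF-beta and BMP signalling, 2 had a promoter peak, Id1, a target of BMP signalling that blocks helix-loop-helix factors, with a fold of 4.59 at 853 bp downstream, and Tgif1, a corepressor of SMAD proteins, with 4.48 across the start. None of 27 extracellular matrix genes, 18 portal fibroblast markers and 14 hepatic stellate cell markers had one, nor had any of 20 inflammatory mediators, 25 chaperones and 17 glycolysis genes. The intervals of all these lists held 1.21%, as did that of TGF-beta and BMP signalling (0.846 to 22.8). Lists of this size cannot show a lack of promoter peaks. Among markers of other liver cells, none of 8 for cholangiocytes, 9 for hepatocytes and 9 for endothelium had a promoter peak, again with intervals that held 1.21%. Of 9 for macrophages 1 did, Lyz2, in the high-background stretch described at the end. The KLF and SP family had 1 of 21, Klf3, a repressor of the family, with a fold of 5.19 at 971 bp upstream. Klf4, the gene supplied by the virus, had no promoter peak. Immediate early genes had 1 of 20 (Ier2). Cell cycle genes had 1 of 22 (Mdm2) and nuclear pore genes 1 of 26 (Nup107), both in the same high-background stretch as Lyz2.

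Of 21 gene families named by their symbols, 13 had at least 1 promoter peak. The tRNA synthetases, which load amino acids onto tRNAs, had 3 of 38 genes (7.89%, 1.66 to 21.4), Aars1 with a fold of 4.75, Nars2 with 4.59 and Mars1 with 4.54, and their interval lies just above 1.21%. That interval rests on 3 genes of 1 family among 21. The families too were chosen with earlier results of these data known, so this is no independent count. Cytosolic ribosomal proteins had 3 of 84, Rpl41, Rpl32 with 5.30 in a 573 bp spanning peak, and Rpl38 with 4.59. Histones had 2 of 81, H2ac13 and H2ac12, the latter with a fold of 4.59 across its start. The family of RING-type and other genes of the ubiquitin system had 5 of 341, namely Rnf181, Marchf8, Trim13, Rnf10 and Usp4, the last a deubiquitinase, and Rnf227 is under a symbol the table does not hold. Zfp zinc finger genes had 5 of 465. Solute carriers had 2 of 375, Tmem genes 2 of 238, and vomeronasal receptors, chemosensory genes of the nose, 2 of 353. Mitochondrial ribosomal proteins (Mrps10, of 78), the respiratory chain (Atp5mg, of 98), splicing factors (Hnrnpa1, of 79), Ccdc genes (of 137) and S100 proteins (S100a3, of 19) had 1 each. Translation factors (71), MAP and cyclin-dependent kinases (75), keratins (109), cytochromes P450 (98), the proteasome (51) and Hox genes (39) had none, and of 1110 olfactory receptors in the table none was matched, although Or5al1, Or1e30 and Or2d4 are in the peak list under symbols the table does not hold.

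By the Gene Ontology terms deposited with the peaks, promoter genes held the terms nucleus and nucleoplasm more often, and plasma membrane less often, than genes with peaks elsewhere. The comparison was with 1311 coding genes whose peaks all lay outside their promoters within 1 kb. The term nucleus was held by 103 of 275 promoter genes (37.5%, 31.7 to 43.5), against 28.1% (25.7 to 30.6), and nucleoplasm by 39 (14.2%, 10.3 to 18.9), against 8.54% (7.09 to 10.2). Plasma membrane was held by 44 (16.0%, 11.9 to 20.9), against 25.5% (23.1 to 27.9). Of 31 terms held by at least 5% of genes, those with intervals that did not overlap were these 3. For nucleoplasm the intervals were barely apart, with a lower limit of 10.28% at promoter genes against an upper limit of 10.19%. Its promoter genes include Cpsf6, Mdm2 and Nup107 of the high-background stretch of chromosome 10. The terms were not counted again without that stretch, so the separation for nucleoplasm may depend on it. DNA binding (32 genes, 11.6% against 6.71%) and extracellular region (5.09% against 9.31%) had overlapping intervals, as had membrane (33.1%, 27.6 to 39.0, against 40.9%, 38.2 to 43.6) and integral component of membrane (20.0%, 15.4 to 25.2, against 25.8%, 23.4 to 28.2).

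**Figure D4:**
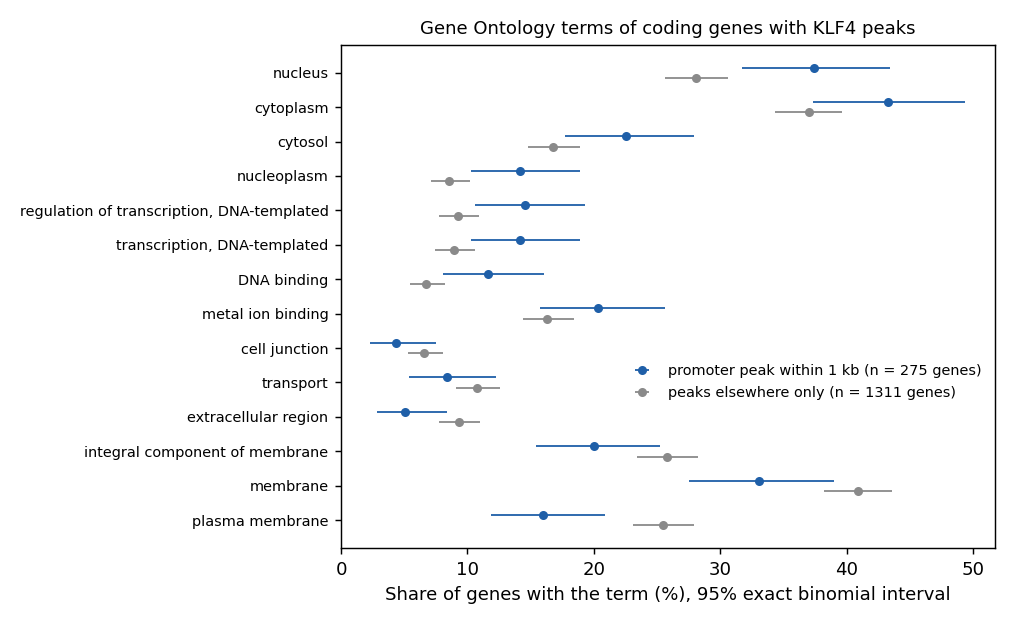
Share of genes (%) with each of 14 Gene Ontology terms, the 8 with the highest and the 6 with the lowest difference of those held by at least 5% of genes, with the 95% exact binomial interval, for 275 genes with a promoter peak within 1 kb and 1311 coding genes with peaks elsewhere only. Nucleus stands at 37.5% against 28.1%, and plasma membrane at 16.0% against 25.5%.

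Smaller terms, picked after their values were seen, are given for their genes. Cell division was held by 13 promoter genes (4.73%, 2.54 to 7.95, against 1.60%, 0.994 to 2.44), among them Cenpt, a kinetochore protein, Cit, a kinase of cytokinesis, Anapc5, a subunit of the anaphase-promoting complex, and Mad1l1, a spindle checkpoint protein. Their folds were 5.26 at Cenpt, 5.19 at Cit, 5.12 at Anapc5 and 4.59 at Mad1l1. DNA repair was held by 10 (3.64%, 1.76 to 6.59, against 1.37%, 0.816 to 2.16), with overlapping intervals, among them Exo5, an exonuclease, and Smug1, a uracil-DNA glycosylase, both at a fold of 5.35, and Lig4, the ligase of end joining, at 4.51. Actin cytoskeleton was held by 10 (3.64%, 1.76 to 6.59, against 1.45%, 0.875 to 2.25), also with overlapping intervals, among them Dst, Cit and Myh9. Other terms picked in the same way were lower at promoter genes, with overlapping intervals, immune system process at 1.09% against 2.44%, G-protein coupled receptor activity at 1.09% against 1.60% and extracellular matrix at 1.09% against 1.37%. DNA-binding factors with a promoter peak included Rbpj, the nuclear partner of Notch, at a fold of 5.61, Tcf3, a helix-loop-helix factor, at 5.35 in a 625 bp peak, and E2f2, a cell cycle factor, at 4.59. Mtor and Rptor, a kinase of growth control and its partner, had folds of 4.51 and 4.43, each upstream of a transcript much shorter than the gene. Ccn3, a matricellular protein picked outside these terms after its values were seen, had a 508 bp peak with a fold of 5.19 at 63 bp upstream. That peak had 7 fragments and a q-value of 0.0104.

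Promoter genes had a divergent coding neighbour more often than coding genes at large. Of 221 promoter genes with a start in the RefSeq promoter table, 32 (14.5%, 10.1 to 19.8) had a coding neighbour on the opposite strand with a start at most 1000 bp away, against 8.48% of 17492 coding genes and 6.10% (4.67 to 7.79) of 968 genes with peaks elsewhere only. The starts lay 5 to 627 bp apart, with a median of 130.5 bp, and of the 33 peaks 13 spanned the start, 9 lay upstream and 11 downstream. The annotation gave each peak to 1 gene. No neighbour was itself a member, and 3 neighbours had a peak of their own anywhere in the list. A peak between such starts is upstream of both genes, and the deposited name does not tell them apart. Pairs were found by gene name from RefSeq starts, however, so the peak need not lie at the shared promoter. Of the 32 genes, 11 had their peak at a full-length transcript.

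By fold, the leading pairs were Hdgfl2 with Ubxn6, a cofactor of the p97 ATPase, at starts 298 bp apart, and H2ac13 with H2bc13, a histone H2B gene, at 229 bp. Tmx2 was paired with Med19, a Mediator subunit, at 228 bp, and Tada3 with Arpc4, an Arp2/3 subunit, at 275 bp. Hnrnpa1, a splicing factor with a fold of 5.84 across its start, was paired with Cbx5, the heterochromatin protein HP1 alpha, at 545 bp. Slc5a6, a vitamin transporter with a fold of 5.66, was paired with Atraid at 78 bp, and Ogfod1, an oxygenase with a fold of 5.48 across its start, with Nudt21, a cleavage factor of mRNA 3′ ends, at 159 bp. Wbp11, with a fold of 5.48, was paired with BC049715 at 627 bp, Ppp1r9a with Gmfg-ps at 97 bp, and Rhobtb1 with A930033H14Rik at 96 bp. Not all of these peaks lay between the paired starts. That of Slc5a6 was 447 bp upstream, beyond the 78 bp to Atraid. That of Rhobtb1 was 423 bp upstream of a transcript of 4573 bp in a gene of 140734 bp.

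Motifs of the KLF type were at shares close to those of other genes. The window was the 300 bases around the gene's outermost RefSeq start, which need not be the start the peak was annotated to. There GGGNGTGG was found on either strand in 53 of 221 promoter genes (24.0%, 18.5 to 30.2), against 19.3% of all coding promoters and 21.2% of genes with peaks elsewhere only. GGGCGGGG was found in 67 (30.3%, 24.3 to 36.8), against 23.8% and 28.5%, and CACCC in 147 (66.5%, 59.9 to 72.7), against 58.5% and 63.2%. For GGGCGGGG and CACCC the interval lay just above the share of all coding promoters, and for each motif it held the share of genes with peaks elsewhere. Where the peak reached into the same distance around its annotated start, in 103 genes, the shares were 22.3%, 28.2% and 57.3%, the last of them below the 58.5% of all coding promoters, which its interval (47.2 to 67.0) held. In the 42 of these genes where that start was of a full-length transcript, they were 19.0% (8.60 to 34.1), 26.2% (13.9 to 42.0) and 57.1% (41.0 to 72.3). Each of these intervals held the share of all coding promoters. Among genes with a peak at a q-value under 0.01, GGGCGGGG was in 16.0% (7.17 to 29.1), below the 23.8% of all coding promoters, so the place of GGGCGGGG and CACCC relative to other promoters depends on the peaks taken. CpG dinucleotides had a median of 18 per window, against 13 over all coding promoters and 17 at genes with peaks elsewhere only. These values did not always move with the motif shares. Among genes with a peak at a q-value under 0.01 the CpG median was 16, above 13, while GGGCGGGG was less frequent than over all coding promoters. The part of CpG content in the motif shares was not tested. A further count took 35 windows of genes with a single RefSeq start and a peak reaching that distance around the start of a full-length transcript. Of these, 5 held GGGNGTGG, 11 GGGCGGGG, 18 CACCC and 11 none of the 3. A peak may cover only the edge of the window, as at Mat2a, where it ended 231 bp upstream. A match therefore need not lie under the peak.

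**Figure D5:**
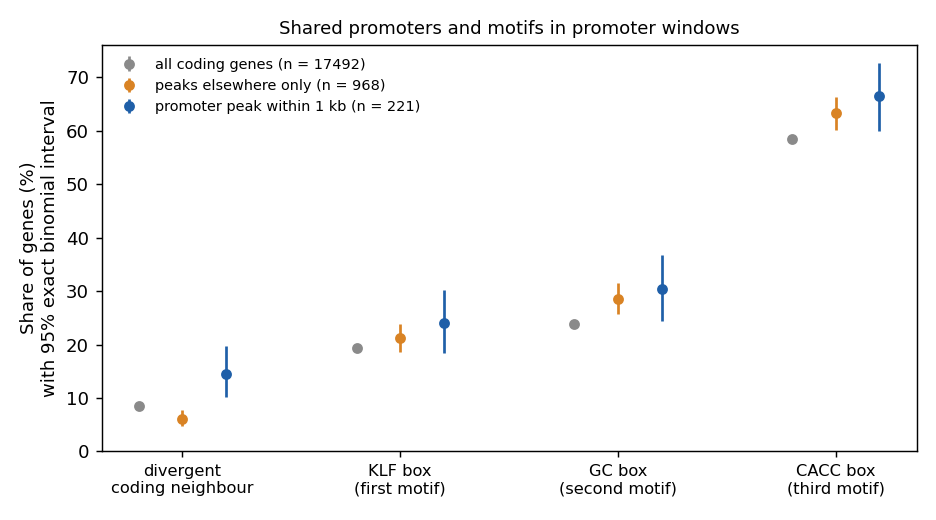
Share of genes (%) with a divergent coding neighbour and with each motif (left to right, GGGNGTGG, GGGCGGGG and CACCC) in the promoter window, with the 95% exact binomial interval, for all coding genes (17492), genes with peaks elsewhere only (968) and genes with a promoter peak (221). The divergent share of 14.5% stands above 8.48% and 6.10%, and the motif shares of the last 2 groups overlap.

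Several genes had more than 1 promoter peak, 7 in all, through different transcripts or within the same stretch. Mdm2 had 3, and Cpsf6, Cwc22, Atp5mg, Depdc5, Vmp1 and Zfand2a had 2 each. Depdc5, a negative regulator of mTORC1 signalling, had both peaks at a fold of 4.54 before the same transcript start, at 784 and 180 bp upstream and 403 bp apart. Vmp1, a membrane protein of autophagy, had folds of 5.19 at 488 bp downstream and 4.54 across a start, 447 bp apart. Zfand2a, a zinc finger protein induced by stress, had folds of 5.30 and 4.59, and Atp5mg had 5.97 and 4.54. By chromosome, 31 promoter peaks lay on chromosome 11, 28 on chromosome 5, 25 on chromosome 6, and 2 each on chromosomes 12 and X.

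On chromosome 10, 8 promoter peaks of 5 genes, among 109 peaks in all, lay in a stretch around Mdm2 where the input signal was high. They were Mdm2 (folds of 2.25, 2.09 and 1.82), a ubiquitin ligase that restrains p53, Cpsf6 (3.78 and 3.44), a factor of mRNA 3′ end processing, Lyz2 (3.45), the lysozyme of macrophages, Cpm (2.37), a carboxypeptidase, and Nup107 (2.05), of the nuclear pore. Their heights of 45 to 77 fragments were far above those of other members, and their background was 40.3 to 132 times the genome-wide one, with a median of 68.1, so their median fold was 2.31. A q-value under 0.01 was held by 6 of the 8, and none spanned a TSS. More than 10 times the genome-wide background was used at 12 members (4.24%), against 4.79% of all peaks, the other 4 being Esrrg at 17.9 times, both Cwc22 peaks at 30.7 and 38.1 times, and an unnamed gene on an unplaced scaffold at 24.7 times. Of the 8 members with a q-value under 1e-05, 4 were in high background, 3 of them in this stretch, and a ranking by q-value places these above most other promoters. The share with a q-value under 0.01 was 19.6% (15.0 to 24.8) among the 271 members outside high background.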

How the data were processed

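KLF4 ChIP and input DNA of the same kind of Klf4-overexpressing cells were compared in 1 deposited table of peaks (1 ChIP and 1 input library). Per the submitters' processing notes, MACS2 2.2.7.1, ChIPseeker 1.44.0, Bowtie2 2.4.2 and fastp 0.24.0 were among the tools, beside deepTools 3.4.1 and bcl2fastq 2.17, on GRCm39. No settings are given in those sources, and read depth is unknown. The IgG precipitation named in the protocol was not analysed here. Each peak has a fold enrichment (ratio), −log10 p-value and −log10 q-value, and the p-value and q-value themselves, as deposited by the authors. All are the authors' own values per peak.

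ChIP height and background were recovered as the whole-number height whose Poisson p-value fits within 0.001 on the −log10 scale, for all 4216 peaks. At 1 promoter peak 2 heights fitted, and the closer was taken. On simulated peaks, 500 of 500 whole heights were recovered and 0 of 500 other heights were fitted. Shares have exact (Clopper-Pearson) 95% intervals. Of 275 genes, 264 matched the RefSeq table (GRCm38.p6), which was used for names, gene spans, neighbours and promoters only, never for peak positions. A promoter window was tied to a peak by the gene's symbol and taken at the gene's outermost RefSeq start. The annotated transcript of a peak may start elsewhere, and an equal span does not prove an equal start. Members, lists and families were chosen with earlier results of these data known. Genes were named by rule: the 20 highest folds outside the chromosome 10 stretch, the 5 widest peaks, genes with several peaks, leading spanning peaks, pairs and list members by fold, and members in that stretch. Further genes of Gene Ontology terms, and Ccn3, were chosen after their values were seen. Alternatives left out the stretch, high-background peaks or peaks with a q-value of 0.01 or more, or changed the distance, start and neighbour limits. The results of 1 gene and 1 gene family are not reported here. Values were computed in Python 3.11.15 with scipy 1.17.1, pandas 2.3.3 and numpy 2.4.6, and plotted with matplotlib 3.10.9.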

Additional observations from a re-analysis of the deposited data

How the results depend on the processing

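Of 48 alternative values for 11 results, 32 moved by less than the main value's interval (counts, by less than 1.5 times) and 16 moved more. A share has no sign, but the place of GGGCGGGG and of CACCC relative to all coding promoters changed, as given below. Leaving out the chromosome 10 stretch or all high-background peaks was among the former throughout. With a q-value under 0.01 only, 62 peaks of 60 genes remained, 32.3% spanned the TSS, 76.2% of the others lay upstream, the median width was 297 bp, the median fold 5.41, and GGGCGGGG was in 16.0% of promoters, with an interval of 7.17 to 29.1 around it, against 23.8% of all coding promoters. At a distance of at most 500 bp there were 178 peaks, 36.0% spanning and 74.6% of the others upstream, which the narrower window sets in part. With full-length transcripts only, chosen after seeing the data, spanning was 41.0%, the upstream share 80.4%, the median width 258 bp and divergent pairs 11, from fewer peaks. By midpoints within 100 bp of the start, also chosen after seeing the data because the list has no summit column and the summit setting was not run, 15.5% counted as spanning. With the peak over the promoter window only, CACCC was in 57.3% (47.2 to 67.0), against 66.5% of all promoter genes and 58.5% of all coding promoters. Apart from fewer peaks and narrower limits, the cause was not tested. No paired analysis was possible because there was 1 library per group, and none could be left out. Heights of 5 or 6 fragments limit any ordering of single genes.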
